A study of Mus musculus with 13 samples.

Results

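The stearoyl-CoA desaturases and fatty acid desaturases of the mouse were followed by name, as the 8 genes *Scd1*, *Scd2*, *Scd3*, *Scd4*, *Fads1*, *Fads2*, *Fads3* and *Fads6*, out of 34419 genes counted in gluteal white adipose tissue (WAT). All 8 were found and all 8 passed the filter on low counts, which kept 17779 genes. The study housed C57BL/6J mice at 22°C, standard room temperature for mice, or at 29°C, thermoneutrality, from birth until 13 weeks of age, to ask how a cool environment changes subcutaneous fat. RNA-seq was made from gluteal WAT, a subcutaneous depot, of 7 mice at 22°C (the cool group) and 6 mice at 29°C (the warm group). All were males that lived alone in cages with little bedding and no nest material, and in both groups the hair of the posterior body was taken off after weaning, a step that the warm controls share.

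Desaturases of the endoplasmic reticulum put a double bond into a fatty acyl chain, using oxygen and electrons that pass from NADH through cytochrome b5 reductase and cytochrome b5. Stearoyl-CoA desaturases place the bond in the middle of a saturated chain and so make the monounsaturated palmitoleic and oleic acids, the latter being the main fatty acid of adipose triacylglycerol. The FADS enzymes act nearer to the carboxyl end and make polyunsaturated fatty acids such as arachidonic acid, and *Fads3* acts on sphingoid bases.

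The *Scd* genes are close copies of each other, which bears on how their reads can be told apart. Between *Scd1* and the others, 90.7% of aligned coding bases were identical in *Scd2*, 91.5% in *Scd3* and 86.1% in *Scd4*, in the longest protein-coding transcript of each gene in GENCODE M21 on GRCm38. The stretch of 60 coding bases in which the 4 genes are most alike is shown because it is the same letter for letter in all of them. It lies across the junction of exons 4 and 5 of each gene on chromosome 19, from base 586 to 645 of the *Scd1* coding sequence (chr19:44400365-44401742 of GRCm38, minus strand, with the intron between), and a read that lies wholly within it matches all 4 genes:
Scd1: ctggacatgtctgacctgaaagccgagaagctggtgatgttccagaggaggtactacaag
Scd2: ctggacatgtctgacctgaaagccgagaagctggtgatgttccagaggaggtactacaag
Scd3: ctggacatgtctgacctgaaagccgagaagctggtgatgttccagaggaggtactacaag
Scd4: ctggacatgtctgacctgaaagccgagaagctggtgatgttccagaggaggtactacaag

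Such stretches were a small part of the whole transcripts, which differ more in their untranslated ends. Of the windows of 50 bases in the *Scd1* transcript, 3.49% occurred exactly in *Scd3*, 3.03% in *Scd2* and 1.76% in *Scd4*. Counting windows with up to 2 mismatches, 12.8% of the *Scd3* transcript and 6.85% of the *Scd4* transcript matched *Scd1*.

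The *Fads* genes are less alike. Coding identity to *Fads3* was 72.8% in *Fads2* and 68.3% in *Fads1*, and no window of 50 bases was shared between *Fads3* and *Fads1*, whereas 0.137% of the *Fads3* windows occurred in *Fads2*. Their most alike stretch of 60 bases, across exons 10 and 11 on chromosome 19, codes for a histidine box that binds the iron of the active site. It starts at base 1125 of the *Fads3* coding sequence (chr19:10056249-10056436 of GRCm38, plus strand, with the intron between), and capitals mark bases that differ from *Fads3*, 1 in *Fads2* and 7 in *Fads1*:
Fads3: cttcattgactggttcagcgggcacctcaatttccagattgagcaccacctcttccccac
Fads2: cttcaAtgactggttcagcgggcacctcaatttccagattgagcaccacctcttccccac
Fads1: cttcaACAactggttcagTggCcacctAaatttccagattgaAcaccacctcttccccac

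Total counts per library were between 22356637 and 25245785. They fell into a lower cluster, with 5 libraries at 22°C, and a higher cluster, with 2 libraries at 22°C and all 6 at 29°C. The tissue label fitted its markers, since the summed level of 8 adipocyte genes was between 22790 and 35540 CPM (read counts scaled to library size) at 22°C and between 29510 and 36230 CPM at 29°C, with none of them at 0. Skeletal muscle genes, 7 listed and 7 tested, summed to between 524.1 and 67880 CPM at 22°C and between 85.52 and 5026 CPM at 29°C, and the highest sums were 46220 CPM in 22°C replicate 1 and 67880 CPM in 22°C replicate 7. All 7 had higher means at 22°C (their median log2 fold change was 3.02), and 4 had an unadjusted p below 0.05 in edgeR's test, but 0 of 7 passed after adjustment, where 1.94% of all genes tested did. In tissue, fewer cells of a type and less RNA per cell cannot be told apart.

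Compared per length, *Scd1* stood far above the other desaturases. In CPM per kilobase of exon (RPKM), it ranged from 2218 to 7509 over the 13 mice, and the next gene, *Fads3*, from 80.88 to 173.1. *Scd1* was the gene with the most counts in 5 of 13 libraries and held 1.61% to 3.12% of a library at 22°C and 1.12% to 2.92% at 29°C. Below *Fads3* came *Scd2*, from 19.69 to 86.16 RPKM, and *Fads1*, from 18.74 to 33.07 RPKM, and this pair did not differ beyond its spread, as *Scd2* was the higher of them in 6 of 13 mice. *Fads2*, from 2.87 to 7.09 RPKM, was above *Scd3*, from 1.19 to 4.90 RPKM, in 12 of 13 mice although their ranges overlapped. *Fads6* and *Scd4* were the lowest, at 0.361 to 1.37 and 0.224 to 1.04 RPKM, with *Fads6* above *Scd4* in 11 of 13 mice. The *Scd4* level rested on 22 to 86 counts in a library.

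**Figure D1:**
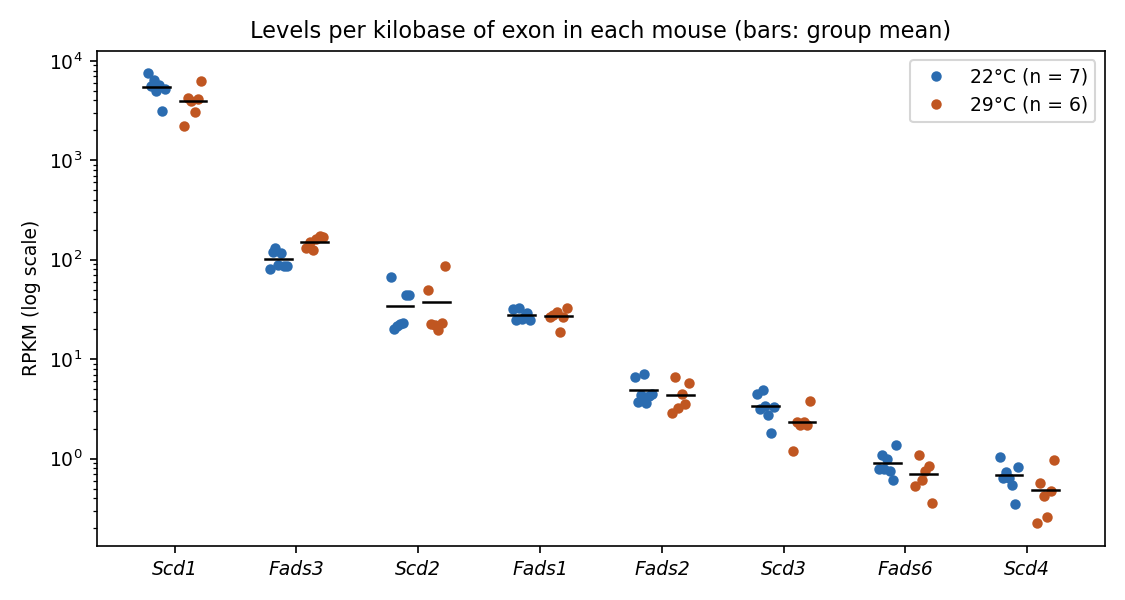
Level of each desaturase gene in CPM per kilobase of exon (RPKM, logarithmic axis) in each mouse, blue at 22°C and orange at 29°C, with bars at the group means. *Scd1* lies above all others, between 2218 and 7509 RPKM, and *Scd2* and *Fads1* overlap in both groups.

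Of the 8 desaturase genes, 1 passed the test between temperatures, *Fads3*, which was lower at 22°C. None passed as higher at 22°C. Over all genes tested by edgeR's quasi-likelihood test at an adjusted p (P-adj) below 0.1, 1.94% passed, 1.21% as lower and 0.731% as higher at 22°C. The log2 fold change, given throughout as 22°C minus 29°C, was above 0 for 6 of the 8 genes, with a median of 0.26 beside 0.0074 over all genes tested. None of the 8 genes had levels that did not overlap between the groups, which 1.24% of all genes tested had.

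**Figure D2:**
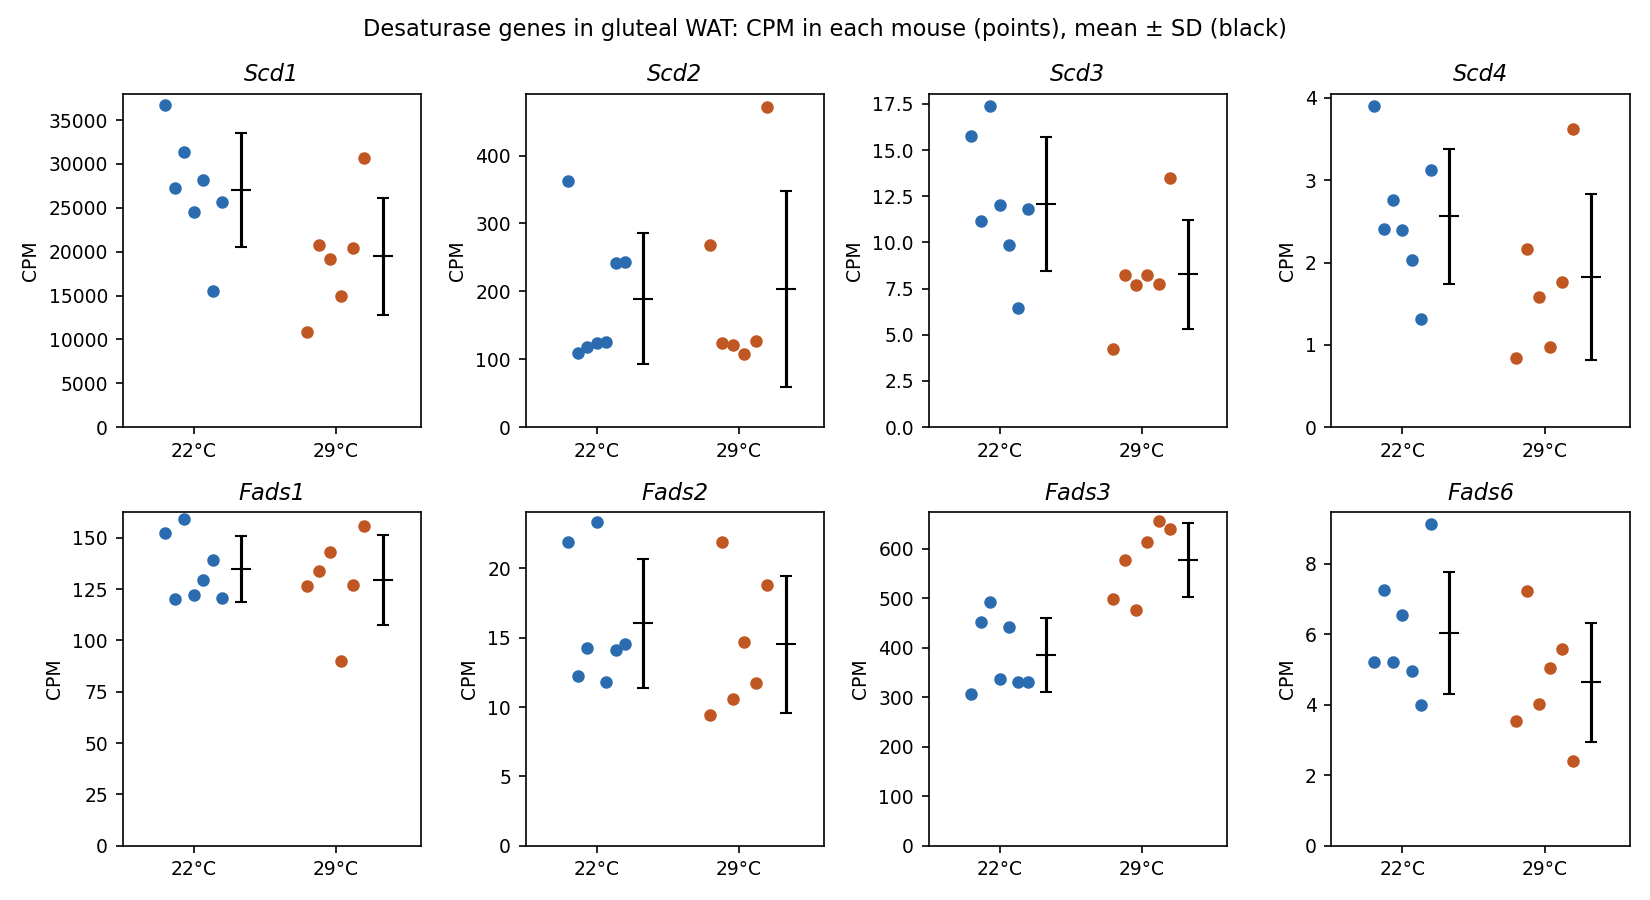
CPM of each desaturase gene in each mouse at 22°C (blue, n = 7) and 29°C (orange, n = 6), with the mean ± SD in black, each panel on its own axis from 0. *Fads3* at 22°C lies below the lowest 29°C mouse in 6 of 7 mice, and the groups overlap in every panel.

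*Scd1*, the main stearoyl-CoA desaturase of adipose tissue and liver, was at 36730, 27260, 31350, 24500, 28110, 15470 and 25650 CPM in 22°C replicates 1 to 7. At 29°C it was at 10850, 20780, 19210, 14910, 20410 and 30690 CPM in replicates 1 to 6. The groups overlapped through a low mouse at 22°C, replicate 6, and a high mouse at 29°C, replicate 6, and 6 of 7 mice at 22°C were above the 29°C median. It averaged 27010 ± 6531 CPM (SD, n = 7) in the cool group and 19480 ± 6687 CPM (SD, n = 6) in the warm group, a ratio of 1.39 with a 95% interval from 0.965 to 1.99. The log2 fold change was 0.47 ± 0.24 (SE), with P-adj = 0.319 in edgeR's quasi-likelihood test, so the call was not made. Its unadjusted p was 0.0734. Over fits that each lacked 1 mouse, the log2 fold change of *Scd1* stayed between 0.35 and 0.65 and P-adj between 0.178 and 0.469. The only 22°C mice in the higher cluster of library totals, where all 29°C mice were, are replicates 6 and 7. Their levels, 15470 and 25650 CPM, lay within the 29°C range of 10850 to 30690 CPM. The higher mean at 22°C thus rested largely on libraries of the lower cluster, which held no mouse at 29°C.

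Set against *Adipoq*, the adipocyte hormone adiponectin, *Scd1* was higher at 22°C. The *Scd1* count was between 6.76 and 20.9 times the *Adipoq* count in the mice at 22°C and between 4.24 and 9.92 times at 29°C. In the mice at 22°C, 6 of 7 had a higher ratio than the highest mouse at 29°C, the exception being replicate 6. The highest ratios, 20.9 and 16.0, were those of 22°C replicates 1 and 7, the mice with the highest muscle sums. These mice also had the lowest *Adipoq* of all, 1761 and 1599 CPM, and the lowest adipocyte sums, 25750 and 22790 CPM. The ratio without both of them was not tested. The difference was 0.83 on the log2 scale, or 1.78-fold, with an exact two-sided permutation p of 0.00758 over 1716 splits, and 0.0455 after Benjamini-Hochberg adjustment over 6 ratios. The genes and markers were chosen with earlier results of these data known, and these p-values do not allow for that choice. *Adipoq* itself was at 2239 ± 436 CPM (SD, n = 7) in the cool group and 2779 ± 289 CPM (SD, n = 6) in the warm group, with a log2 fold change of -0.31 ± 0.14 (SE) and P-adj = 0.247, so both genes of the ratio entered the difference. The ratio was again past the adjusted threshold of 0.05 when 22°C replicate 6 was left out, at a difference of 0.97 and an adjusted permutation p of 0.013, but not when any of the other 12 mice was left out, where the difference was between 0.70 and 0.95 and the adjusted permutation p reached 0.129. The size depended on the marker chosen. Against each of the 8 adipocyte markers the difference was above 0, from 0.38 with *Fabp4*, 0.46 with *Lipe* and 0.48 with *Plin1* to 1.29 with *Lep*. Only *Lep* gave a larger difference than *Adipoq*. The separation also depended on the marker. Above the highest mouse at 29°C were 6 of 7 mice at 22°C with *Lep*, 5 with *Plin1* or *Cidec*, 3 with *Lipe* or *Pnpla2* and 2 with *Fabp4* or *Cfd*. The values for markers other than *Adipoq* were added after seeing the data and not tested.

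*Scd2*, the form that predominates in brain and in young animals, fell into 2 sets of mice that did not follow temperature. It was at 362.5, 108.8, 118.7, 124.1, 125.7, 241.7 and 243.0 CPM in 22°C replicates 1 to 7, and at 268.0, 124.2, 121.0, 107.6, 127.0 and 470.8 CPM in 29°C replicates 1 to 6. A lower set of 8 mice, 4 of each temperature, lay between 107.6 and 127.0 CPM, and a higher set of 5 mice, 3 at 22°C and 2 at 29°C, between 241.7 and 470.8 CPM. The log2 fold change was -0.10 ± 0.40 (SE), with P-adj = 0.921 in edgeR's test and a 95% interval from -0.97 to 0.77. Without 29°C replicate 6, the highest mouse, it was 0.34, and without 22°C replicate 1 it was -0.34. The ratio of *Scd1* to *Scd2* counts ran from 40.5 to 264 over the 13 mice, and its log2 difference between temperatures was 0.51, with an exact permutation p of 0.288 and 0.432 after adjustment.

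*Scd3*, a skin and sebaceous gland form, and *Scd4*, best known from heart, followed *Scd1* from mouse to mouse. *Scd3* was between 6.47 and 17.4 CPM at 22°C, median 11.8, and between 4.22 and 13.5 CPM at 29°C, median 7.99. Its log2 fold change was 0.54 ± 0.25 (SE), with P-adj = 0.268. *Scd4* was between 1.31 and 3.90 CPM at 22°C, median 2.41, and between 0.844 and 3.62 CPM at 29°C, median 1.67, with a log2 fold change of 0.49 ± 0.33 (SE) and P-adj = 0.450. Both medians were higher at 22°C, and the groups overlapped for both genes.

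After the mean of each temperature was taken off, the Pearson correlation of log2 CPM with *Scd1* over 13 mice was 0.91 for *Scd3* and 0.93 for *Scd4*, with Spearman coefficients of 0.72 and 0.86, against 0.15 for *Scd2*. The points of these correlations share a library, and the genes share the stretches of sequence given above. Over the 13 libraries the *Scd3* count was 0.000351 to 0.000556 of the *Scd1* count, and the *Scd4* count 6.684e-05 to 0.000122 of it. The log2 ratio differed between temperatures by 0.06 for *Scd3* to *Scd1* and by 0.08 for *Scd4* to *Scd1*, ratios that were chosen after their values were seen and carry no test. Whether reads of *Scd1* placed on its copies had a part in the *Scd3* and *Scd4* counts was not tested. The sebaceous gland genes *Awat2*, *Mc5r*, *Krt79* and *Far2* were tested and none passed, and the whole list of 6 summed to between 23.6 and 32.7 CPM at 22°C and between 24.2 and 40.6 CPM at 29°C.

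*Fads1*, the delta-5 desaturase that makes arachidonic acid, varied the least of the desaturases between mice at 22°C, with a coefficient of variation of 11.8%. It was between 120.4 and 159.1 CPM at 22°C, median 129.6, and between 90.2 and 155.8 CPM at 29°C, median 130.4. The log2 fold change was 0.06 ± 0.11 (SE), with P-adj = 0.821 and a 95% interval from -0.19 to 0.31, the narrowest interval of the 8 genes. Its sign turned, to -0.03, without 29°C replicate 4, the lowest mouse.

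*Fads2*, the delta-6 desaturase that takes the first and limiting step to long polyunsaturated fatty acids, was much lower. It was between 11.8 and 23.4 CPM at 22°C, median 14.3, and between 9.44 and 21.9 CPM at 29°C, median 13.2, with a log2 fold change of 0.14 ± 0.23 (SE) and P-adj = 0.777. The highest mice were 22°C replicates 4 and 1 and 29°C replicate 2, so both groups held high and low mice. Within a library the *Fads1* count was 5.23 to 13.5 times the *Fads2* count, and the log2 ratio differed by -0.09 between temperatures, with an exact permutation p of 0.72 before and after adjustment. The log2 ratio of *Scd1* to *Fads2* differed by 0.34, with an exact permutation p of 0.211 and 0.422 after adjustment. Set against *Adipoq*, *Fads2* differed by 0.49 and *Scd2* by 0.32 on the log2 scale, with adjusted permutation p-values of 0.357 and 0.607.

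*Fads3*, which puts a double bond into sphingoid bases, was the desaturase that passed the test. It was at 306.7, 452.2, 492.4, 336.9, 441.3, 329.9 and 331.4 CPM in 22°C replicates 1 to 7. At 29°C it was at 498.0, 576.9, 476.5, 613.5, 656.4 and 639.8 CPM in replicates 1 to 6. The groups met at a single pair, 22°C replicate 3 being above 29°C replicate 3, and the other 6 mice at 22°C were below every mouse at 29°C.

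*Fads3* averaged 384.4 ± 74.8 CPM (SD, n = 7) in the cool group and 576.9 ± 74.8 CPM (SD, n = 6) in the warm group. The log2 fold change was -0.59 ± 0.13 (SE), a ratio of 0.666 with a 95% interval from 0.548 to 0.810, and P-adj = 0.0726 in edgeR's quasi-likelihood test. The counts behind it were between 5819 and 16778 a library, so counting error was small beside the spread between mice. Over fits that each lacked 1 mouse, the log2 fold change stayed between -0.65 and -0.54, and P-adj was below 0.1 in 4 of 13 cases, those without 22°C replicate 2, 3, 5 or 6. It was between 0.105 and 0.156 without any of the other mice, with log2 fold changes of -0.54, -0.56 and -0.55 without 22°C replicates 1, 4 and 7 and between -0.63 and -0.55 without any of the 6 mice at 29°C.

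At 22°C, the mice with the most muscle RNA were among those low in *Fads3*, but the pattern over all mice was mixed. 22°C replicates 1 and 7, with the highest muscle sums, were at 306.7 and 331.4 CPM. 22°C replicate 4, with the next highest muscle sum of 9326 CPM, was at 336.9 CPM, and 22°C replicate 6, with 941.1 CPM, was at 329.9 CPM. 22°C replicate 2, with a muscle sum of 5180 CPM, was at 452.2 CPM. At 29°C, replicate 5 had the highest muscle sum, 5026 CPM, and the highest *Fads3* of all mice, 656.4 CPM. 29°C replicate 1, with a muscle sum of 4851 CPM, was at 498.0 CPM. Within a temperature, *Fads3* had r between -0.48 and -0.41 with the 7 muscle genes over 13 mice. Without replicates 1 and 7, a choice made after seeing the data, the log2 fold change of *Fads3* was -0.49, with P-adj = 0.123 in edgeR's test. With the muscle score as a covariate it was -0.48, with P-adj = 0.196. Among libraries with higher totals, which left 2 mice at 22°C, it was -0.81, with P-adj = 0.230.

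Against *Fads1*, *Fads3* was relatively lower at 22°C than at 29°C, with overlapping ranges. Within a library the *Fads3* count was 2.01 to 3.75 times the *Fads1* count at 22°C and 3.33 to 6.80 times at 29°C, a difference of -0.67 on the log2 scale. Set against *Adipoq*, the *Fads3* count was 0.142 to 0.207 times at 22°C and 0.158 to 0.260 times at 29°C, a difference of -0.27 with overlapping ranges, so the ratio to *Adipoq* differed less than the level did. Over the 8 adipocyte markers the difference was below 0 for 7 and ran from -0.72 with *Fabp4* to 0.19 with *Lep*, the adipocyte hormone leptin, which was itself lower at 22°C (log2 fold change -0.78 ± 0.15 SE, P-adj = 0.0564 in edgeR's test). These ratios were chosen after their values were seen and carry no test. Of the summed FADS levels per length, *Fads3* made up 74.6% ± 4.41 (SD, n = 7) in the cool group and 82.5% ± 2.96 (SD, n = 6) in the warm group, and *Fads1* 21.0% ± 3.30 and 14.8% ± 2.96. The corresponding share of *Scd1* among SCD levels was 99.3% ± 0.388 and 99.0% ± 0.660.

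*Fads6*, a family member whose substrate is little known, was between 4.01 and 9.13 CPM at 22°C, median 5.22, and between 2.40 and 7.22 CPM at 29°C, median 4.53. The log2 fold change was 0.38 ± 0.25 (SE), with P-adj = 0.428, and the counts were between 57 and 202 a library. The mouse with the most muscle RNA, 22°C replicate 7, was also the highest in *Fads6*, at 9.13 CPM. 22°C replicate 1, next in muscle sum at 46220 CPM, was at the 22°C median of 5.22 CPM. The highest mouse at 29°C, replicate 2 at 7.22 CPM, had a muscle sum of only 188.7 CPM. Within a temperature, *Fads6* had r between 0.37 and 0.58 with the 7 muscle genes over 13 mice. With the muscle score as a covariate its log2 fold change was 0.12, with P-adj = 0.897, and without 22°C replicates 1 and 7 it was 0.27, with P-adj = 0.667.

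**Figure D3:**
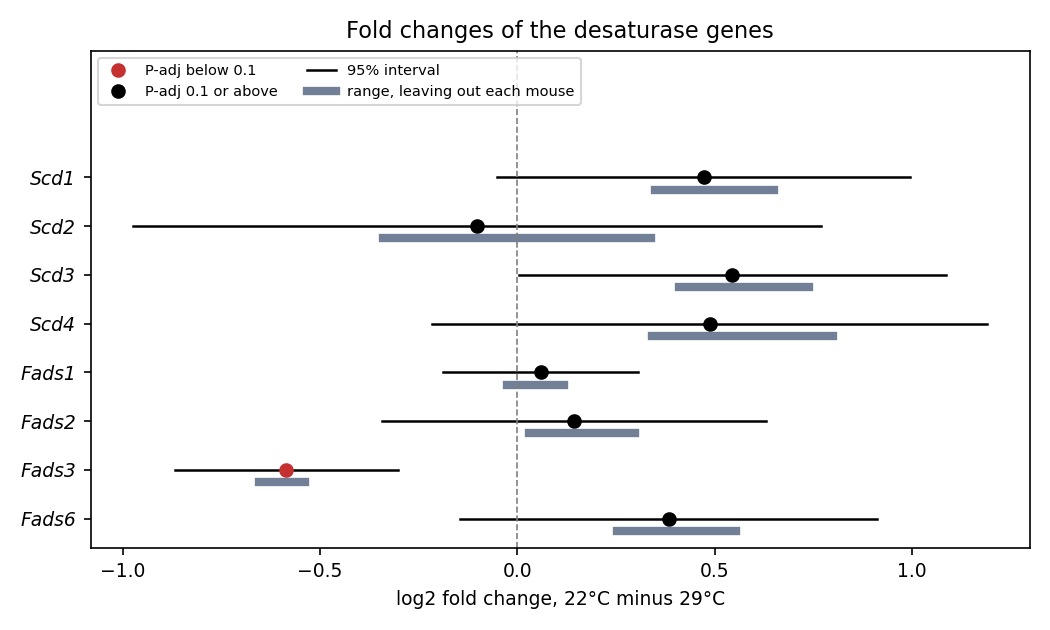
Log2 fold change of each desaturase gene, 22°C minus 29°C, with its 95% interval (thin line) and the range over fits that each left out 1 mouse (thick grey line). *Fads3*, at -0.59 (red), has P-adj below 0.1, and the grey range crosses 0 for *Scd2* and *Fads1*.

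Around the desaturases, no gene of the lists of the pathway passed the test. Over all genes tested 1.94% passed, a share at which lists of 5 to 16 tested genes would hold few calls or none. The lists were written with earlier results of these data known. Of the electron donors, 0 of 6 passed, and their median log2 fold change was 0.10. The 3 most abundant were *Cyb5a* and *Cyb5b*, the microsomal and the outer mitochondrial cytochrome b5, and *Cyb5r3*, the reductase that passes them electrons, with log2 fold changes of -0.14 ± 0.12, 0.14 ± 0.20 and 0.05 ± 0.09 (SE). The level of each overlapped between temperatures.

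Of the other lipid desaturases, 0 of 5 tested passed and all 5 had log2 fold changes below 0, with a median of -0.14. Among them *Degs1*, which makes ceramide from dihydroceramide, had -0.11 ± 0.11 (SE), *Peds1*, which makes plasmalogens, had -0.02 ± 0.09 (SE), and *Sc5d*, of cholesterol synthesis, had -0.19 ± 0.16 (SE). *Fads2b*, a relative of *Fads2* that was singled out after its values were seen, had -3.86 ± 1.33 (SE) and P-adj = 0.174, but it was at 0 counts in 4 libraries and reached 898 counts in 1, so its level differed more between mice than between temperatures. A library with no count of a gene could still hold up to 3, which is 0.119 to 0.134 CPM. *Faxdc2* was not analysed here.

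Of 16 regulators of desaturase genes, 0 passed, and the median log2 fold change was 0.01. *Srebf1*, the transcription factor of lipogenic genes, was at 669.7 ± 136 CPM (SD, n = 7) in the cool group and 663.7 ± 86.2 CPM (SD, n = 6) in the warm group. *Thrsp*, a lipogenic protein, and *Pparg*, the transcription factor of adipocyte identity, had log2 fold changes of -0.31 ± 0.33 and -0.20 ± 0.10 (SE), with P-adj of 0.649 and 0.310.

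The genes of chain elongation gave 0 calls among 12 tested, with a median of -0.03, and *Tecr*, *Hacd2* and *Hsd17b12* were the most abundant of them. Their log2 fold changes were 0.30 ± 0.15, -0.15 ± 0.12 and 0.28 ± 0.22 (SE). *Elovl2*, at 5 counts at most, did not pass the filter.

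The genes of fatty acid synthesis and activation gave 0 calls among 13 tested, with 10 above 0 and a median of 0.35. *Fasn*, fatty acid synthase, was at 7373 ± 5305 CPM (SD, n = 7) in the cool group and 5357 ± 4975 CPM (SD, n = 6) in the warm group. *Acsl1*, which activates fatty acids to acyl-CoA, had a log2 fold change of 0.15 ± 0.20 (SE), and *Dbi*, which binds acyl-CoA, of -0.21 ± 0.15 (SE). The genes that put the products into triacylglycerol and phospholipid gave 0 calls among 9, with a median of -0.13, and *Dgat2*, which makes triacylglycerol, had -0.34 ± 0.20 (SE), *Lpin1* -0.13 ± 0.13 and *Agpat2* 0.32 ± 0.30. With DESeq2, which called 10.2% of all genes it tested, 3 genes of these lists had P-adj below 0.1, namely *Hacd1* and *Acsl6* as higher and *Acsl5* as lower at 22°C.

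**Figure D4:**
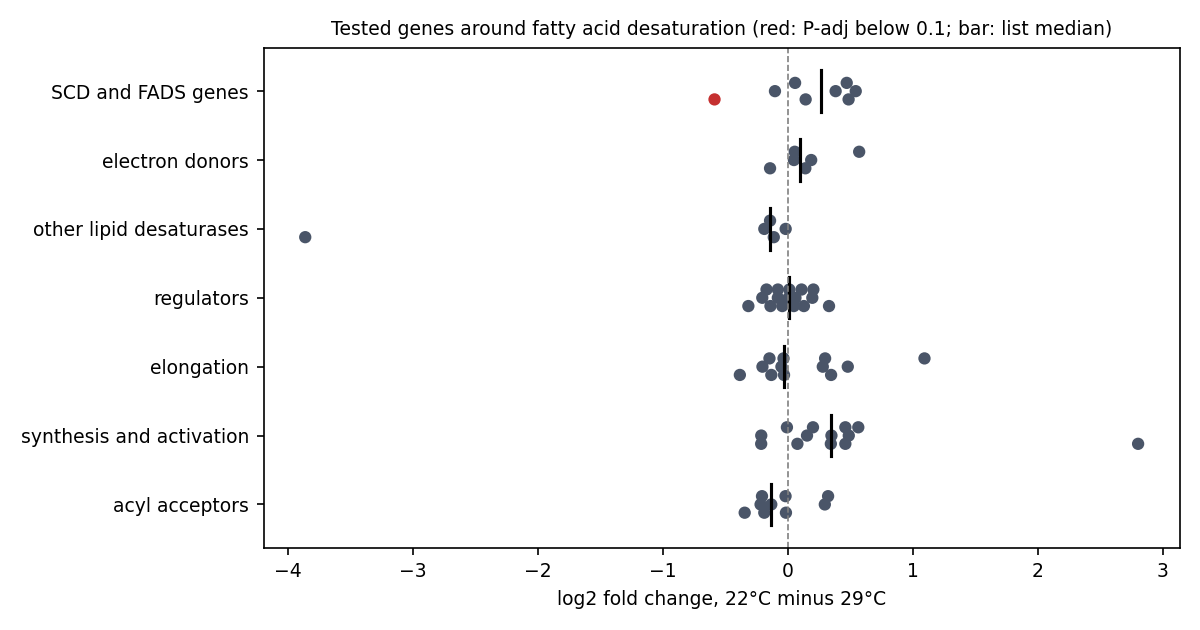
Log2 fold changes, 22°C minus 29°C, of the tested genes in 7 lists around fatty acid desaturation, 1 point per gene, with a bar at the median of each list. *Fads3* is the only red point (P-adj below 0.1), and the point furthest to the left is *Fads2b*, at -3.86.

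Correlations of the desaturases with lipogenic genes within a temperature were taken over 13 mice that each gave 1 library, and no difference between coefficients was tested. *Scd2* followed *Acly*, which makes cytosolic acetyl-CoA, with r of 0.92, and *Fasn* with r of 0.84. Within the lower set of 8 mice, where *Scd2* spans a narrow range by construction, r was 0.41 with *Acly*, 0.48 with *Fasn*, 0.63 with *Thrsp* and 0.76 with *Insig1*, so the higher coefficients cannot be told apart from the gap between the 2 sets. *Fads1* followed *Hsd17b12*, the ketoacyl-CoA reductase of elongation, with r of 0.92, and *Fasn* with r of 0.83. *Scd1* had an r of only 0.39 with *Fasn* and of 0.70 with *Acacb*, the mitochondrial acetyl-CoA carboxylase. *Fads3* had r of -0.28 with *Fasn* and of 0.66 with *Lipe*, hormone-sensitive lipase. The genes in these sentences were chosen after their coefficients were seen.

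**Figure D5:**
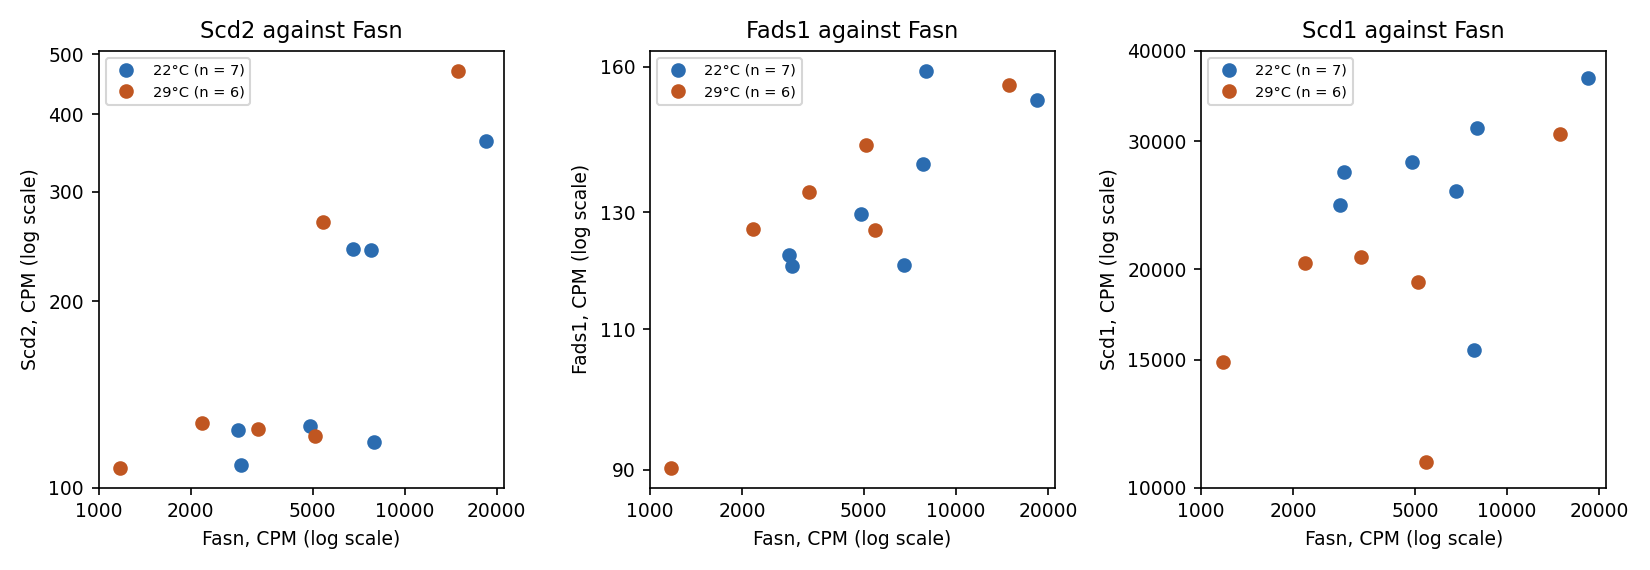
*Scd2*, *Fads1* and *Scd1* against *Fasn* in each mouse, in CPM on logarithmic axes, blue at 22°C and orange at 29°C. *Scd2* falls into 8 mice near 107.6 to 127.0 CPM and 5 mice between 241.7 and 470.8 CPM, while *Scd1* has r of 0.39 with *Fasn* within a temperature.

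Apart from the 8 desaturases themselves, the 3 genes whose pattern within a temperature was most like that of each desaturase were taken from all genes tested. For *Scd1*, *Scd3* and *Scd4* this leaves out one another, since *Scd1* had r of 0.93 with *Scd4* and 0.91 with *Scd3*, above every gene named here for *Scd1*. For *Scd2* the first was *Mir5114*, with r of 0.98, a microRNA gene of which 61 bases lie in an exon of *Scd2* on the same strand, followed by *Mrpl34*, a mitochondrial ribosomal protein, and *Uqcrq*, a complex III subunit, at 0.97 and 0.96. For *Scd3* the first outside the family was *AC123853.3*, a pseudogene with r of 0.90 that shares 75 of its 769 distinct windows of 50 bases with *Scd3*, then *R3hdm4* and *Gm45062*. For *Scd1* they were *Gm12356*, *Pclo* and *Rtel1*, with r between 0.88 and 0.91, and for *Scd4* *Pclo*, *Atxn7l2* and *Sesn2*. For *Fads1* they were *Wdr93*, *Trhde* and *Ppp1r1a*, between 0.93 and 0.94, and for *Fads2* *Gm20512*, *Lrrc3b* and *Boc*, between 0.77 and 0.82. For *Fads3* they were an unnamed gene with identifier ENSMUSG00000118671.1, *Lmo4*, a transcriptional cofactor, and *Gm11491*, between 0.88 and 0.90, and for *Fads6* *Stk25*, *Ets1* and *Zfp862-ps*, between 0.87 and 0.89. The highest coefficients out of 17779 genes are high by selection, so these values describe the 13 mice.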

How the data were processed

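Total RNA of gluteal WAT from 13 mice was sequenced, 1 library per mouse. The authors aligned reads with STAR 2.7.5a, assigned them to genes with featureCounts, and deposited raw counts and regularized log2 values made with DESeq2. The submitters' processing notes name the GRCm39 build. The annotation, read length, strand setting and treatment of reads with several matches are not given in the sources used here, so overlapping genes and close copies are uncertain. Gene symbols were matched by identifier to GENCODE M21, on GRCm38, for 34006 of 34419 genes. Gene lengths are the union of its exons, and coordinates are given only for the sequences printed, on GRCm38.

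Samples were grouped by the temperature in the labels. Counts were tested with edgeR 4.0.16 in R 4.3.3 (TMM, filterByExpr, quasi-likelihood F test, no covariate), with Benjamini-Hochberg adjustment over all genes tested and a threshold of 0.1. SEs were derived from the log2 fold change and its F statistic. CPM were scaled by TMM, with a prior count of 2 for log2 CPM in correlations. Log2 ratios used counts plus 0.5 and exact two-sided permutation tests, whose smallest p is 0.000583. No 2 libraries were alike within sampling noise, the chi-square per gene being at least 11.3 over 78 pairs. The labels do not say more of the mice than a replicate number, so p-values measure the spread between these samples. Zero-count limits cover counting error only. Coding sequences were aligned with Biopython.

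The genes, the lists of the pathway and the markers were chosen with earlier results of these data known. Named from the lists were genes past the threshold, otherwise the 3 most abundant, and for each desaturase the 3 most correlated genes outside the 8. Among the markers, *Lep* (lower at 22°C) passed, 1 of 8 adipocyte genes tested, and *Cd3e* (higher), 1 of 5 lymphocyte genes tested. Of the brown fat genes, 3 of 4 tested passed as higher, *Cidea*, *Cox8b* and *Otop1*. In that list *Elovl3* had a log2 fold change of -0.03, and *Ucp1*, at 7 counts at most, was not tested. No gene of the other marker lists passed, and 1.94% of all genes tested did. Alternatives were DESeq2 1.42.0, its size factors, other filters, robust estimation, the replicate block, leaving out mice, covariates, limma 3.58.1 on the authors' log2 values, a threshold of 0.05 and a pseudocount of 5. The edgeR fit was tested on simulated counts.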

Additional observations from a re-analysis of the deposited data

How the results depend on the processing

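*Fads3* was lower at 22°C under every alternative run, with log2 fold changes from -0.81 to -0.48. It stayed past the threshold with DESeq2, DESeq2 size factors, a mean of at least 10 counts, robust estimation and limma on the authors' log2 values. The count of desaturases past the threshold went from 1 to 0 with no filter on low counts (*Fads3* -0.59, P-adj 0.151), the muscle score as a covariate (-0.48), the total cluster as a covariate (-0.80), the libraries with higher totals only (-0.81), a threshold of 0.05 (-0.59) and, added after seeing the data, without 22°C replicates 1 and 7 (-0.49). Leaving out each mouse gave 0 or 1, with *Fads3* between -0.65 and -0.54. The cause of these changes was not tested.

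With the replicate number as a block, *Fads3* was at -0.57 (P-adj 0.121 in edgeR's test) and 0 desaturases passed. Over the 6 shared numbers 0 of 6 ratios passed, with *Scd1* to *Adipoq* at 0.76. With 6 differences, a sign-change test has too few arrangements for a ratio on its own to pass after adjustment. This setting therefore could not decide on the ratio. Correlations of deviations between mice of the same number were 0.348 to 0.513 for 5 of 6 numbers and 0.0508 for number 5, and 4 of 6 numbers correlated best with their own, a hint of pairing from the data. The numbers were not taken as pairs because the labels give no shared origin and 1 of the 6 correlations was under 0.1.

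The count of list genes past the threshold went from 0 to 3 with DESeq2 and leaving out each mouse gave 0 or 1, the 1 being *Elovl1*, at -0.29, without 22°C replicate 6, where 3.7% of all genes passed. The count of ratios past 0.05 went from 1 to 0 with the libraries with higher totals only. That subset holds 2 mice at 22°C, so its few splits do not let a ratio on its own pass after adjustment. The loss of the call there could not decide on the ratio. Leaving out each mouse gave 0 or 1, with *Scd1* to *Adipoq* between 0.70 and 0.97. Signs turned for values that did not pass. With the libraries with higher totals only, *Fads1* was at -0.0046, *Fads2* at -0.027, *Scd2* at 0.25 and *Scd1* to *Scd2* at -0.39. With the cluster of totals as a covariate, *Fads2* was at -0.018 and *Scd2* at 0.26. Leaving out a mouse gave *Fads1* from -0.026 to 0.12, *Scd2* from -0.34 to 0.34 and *Fads1* to *Fads2* from -0.21 to 0.027. Of 425 values over all alternatives, 352 were classed as the same as in the main run. For tested values this meant the same direction and side of the threshold. For counts of calls it meant little or no change, and for untested ratios and mean levels a shift smaller than the SD. A tested value that did not pass in the main run was thus the same wherever it kept its sign and did not pass. The calls themselves held less often. *Fads3* was classed as the same in 9 alternatives and as weaker in 16, and the count of ratios as the same in 2 and as moved in 14.

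Over all genes tested the count of calls was 345 with edgeR, 1676 with DESeq2 and 42 with no filter. Depth limits *Scd4*, with 22 to 86 counts, and *Fads6*, with 57 to 202.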
